A study of Homo sapiens with 10 samples.

Results

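Genes that moved the same way when CPT1A was raised and when it was lowered were described in LNCaP-C4-2, a line of prostate cancer cells that grew out of LNCaP and no longer depends on androgen supply. CPT1A is the outer mitochondrial membrane enzyme that commits long-chain fatty acids to oxidation. Messenger RNA was counted per gene in 10 samples of 4 lines, which were cells with a non-targeting shRNA (NT, n = 2), cells with 1 shRNA against CPT1A (KD, n = 3), cells with empty virus (EV, n = 2) and cells given the CPT1A open reading frame by lentivirus (OE, n = 3). NT and KD were selected with puromycin at 1 ug/ml, and EV and OE with blasticidin at 5 ug/ml, so the 2 arms differ in vector and drug as well as in CPT1A. Counts were divided by the library total and multiplied by 1000000 (CPM), and the ratio of line means was taken in each arm, OE over EV and KD over NT, after adding 0.1 CPM to both means. A gene was a member when its mean CPM over the 10 samples was at least 1 and both log2 ratios were at least 1 (rising) or both at most -1 (falling). Of 57353 genes in the table, 13920 reached the CPM minimum, and 145 of them were members, 45 rising and 100 falling. No Y-linked gene passed the limits (0 genes).

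The samples held 23555205 to 28615770 counts. CPT1A was at 268 and 265 CPM in NT and at 84.7, 87.6 and 90.8 CPM in KD. It was at 329 and 323 CPM in EV and at 829, 857 and 818 CPM in OE, so each line moved CPT1A as its label says. All 9 luminal prostate markers checked, among them the secreted protease KLK3 and the keratin KRT18, reached the CPM minimum, with a summed level of 6128 to 11334 CPM over the samples. Markers of blood cells summed to at most 0.28 CPM in any sample. Separate transductions of a line are not described, and replicate samples are read here as the spread within a line. In bulk samples such as these, a change in the share of cells in a given state and a change in RNA per cell cannot be told apart.

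The limits picked unequal numbers of genes in the 2 arms. In OE over EV, 127 genes (0.912%) were at a log2 ratio of at least 1 and 485 (3.48%) at most -1. In KD over NT, 623 (4.48%) were at least 1 and 505 (3.63%) at most -1. The 45 rising members were 35.4% of the genes past the upper limit in OE over EV and 7.22% of those in KD over NT. The 100 falling members were 20.6% of the genes past the lower limit in OE over EV and 19.8% of those in KD over NT. Opposite movement past the limits was seen in 37 genes, 10 higher in OE and lower in KD and 27 the other way. Over all 13920 genes the 2 log2 ratios had a Pearson correlation of 0.285, across genes that share libraries and are not independent. The 2 ratios share no sample. Because the members were chosen on these ratios, their sizes are given as a description without a test.

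**Figure D1:**
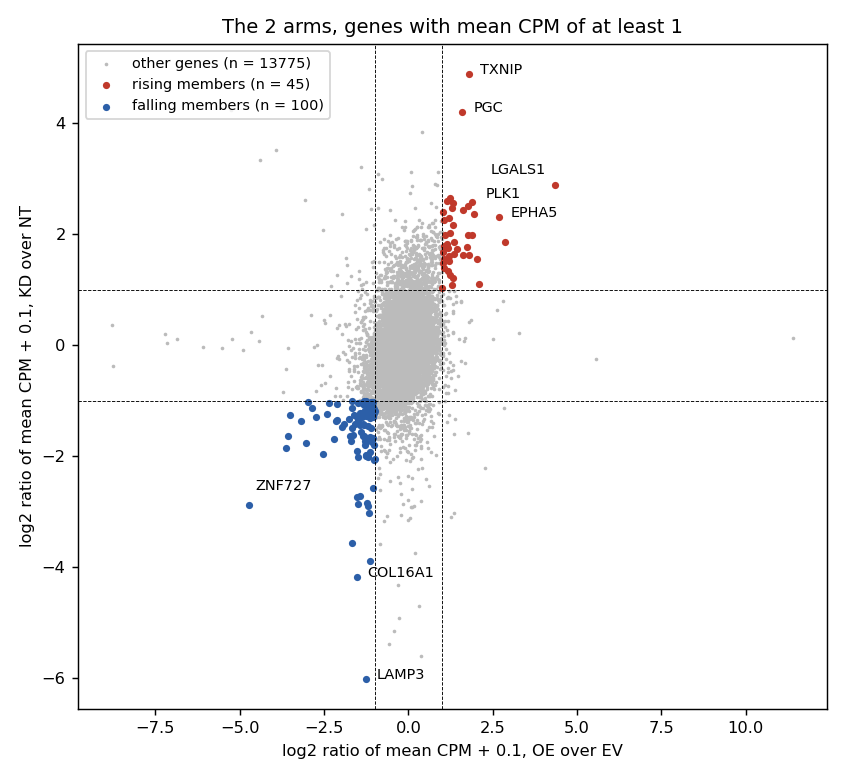
The log2 ratio of OE over EV (x axis) and of KD over NT (y axis), from line means of CPM plus 0.1, for the 13920 genes with a mean CPM of at least 1. Dashed lines mark the limits of 1 and -1, and the 45 rising members (red) lie in the upper right corner and the 100 falling members (blue) in the lower left corner.

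The largest functional group among the rising members was mitosis. Cells that enter mitosis build up cyclin B, which activates the kinase CDK1. The kinases PLK1 and AURKA build the spindle, kinesins move and shorten microtubules, and the anaphase-promoting complex with its activator CDC20 and the ubiquitin-conjugating enzymes UBE2C and UBE2S then degrades cyclin B and securin. Transcription of many of these genes peaks in late G2, and their promoters are known for a cell cycle genes homology region (CHR) with the letters TTTGAA and for the CCAAT box. The windows of the 3 mitotic members with the highest mean CPM are shown because these genes moved together. Each is the 250 bases before the annotated start in RefSeq (GRCh38.p14, + strand), at chr16:23678639-23678888 for PLK1, chr5:69166900-69167149 for CCNB1 and chr1:43358731-43358980 for CDC20. Capitals mark the CHR letters, read on either strand, and the CCAAT box.
PLK1: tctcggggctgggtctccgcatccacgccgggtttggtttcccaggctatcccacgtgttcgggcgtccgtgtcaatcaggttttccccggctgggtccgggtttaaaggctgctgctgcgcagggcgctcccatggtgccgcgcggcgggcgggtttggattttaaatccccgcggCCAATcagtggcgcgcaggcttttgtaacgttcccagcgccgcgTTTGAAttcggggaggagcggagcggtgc
CCNB1: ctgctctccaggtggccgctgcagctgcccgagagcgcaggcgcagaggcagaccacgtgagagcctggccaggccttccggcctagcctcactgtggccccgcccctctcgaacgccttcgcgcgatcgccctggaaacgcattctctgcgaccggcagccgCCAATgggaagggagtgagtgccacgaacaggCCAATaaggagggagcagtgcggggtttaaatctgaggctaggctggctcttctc
CDC20: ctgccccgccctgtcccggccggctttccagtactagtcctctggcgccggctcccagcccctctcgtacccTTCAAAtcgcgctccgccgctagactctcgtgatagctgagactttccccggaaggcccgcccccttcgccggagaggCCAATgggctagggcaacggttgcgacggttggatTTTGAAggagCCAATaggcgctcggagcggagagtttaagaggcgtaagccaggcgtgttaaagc
The PLK1 window held 1 CHR match, beginning 29 bases before the start, and 1 CCAAT box 73 bases before it. That of CDC20 held CHR matches 65 and 178 bases before the start, the latter on the minus strand, and CCAAT boxes at 55 and 100 bases. The CCNB1 window had CCAAT boxes at 55 and 87 bases and no match to the CHR letters. Over windows from 250 bases before to 50 after the start, 10 of the 13 mitotic members matched the RefSeq table, with 13 windows in all. CDC25C alone had 4 of these windows, 2 of them with the CHR letters. The CHR letters stood in 8 of the 13 windows (61.5%), which belonged to 7 of the 10 genes, against 9.88% of 14636 windows of genes at the CPM minimum and 15.2% of all 35116 windows. A CCAAT box, also on either strand, stood in 10 of 13 windows (76.9%) against 34.9% and 34.6%. Among the other rising members 8 of 36 windows held the CHR letters, and among the falling members 16 of 101. Windows of mitotic genes that were not members were not counted apart, so the motifs are not shown to be particular to the members. The 2 motifs do not overlap in their letters, were picked after the members were known, and a match describes the letters of a window and not a bound site.

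Of 54 mitosis genes in a list written from general knowledge, 54 reached the CPM minimum and 13 were rising members (24.1%, against 0.323% of all genes at the minimum). They were CCNB1, CCNB2, CDC20, CDC25C, PLK1, AURKA, KIF2C, KIF20A, CENPA, UBE2C, GTSE1, PIF1 and FAM83D. None of the 54 was a falling member. The list was written with earlier results of these data known, so these shares are a description and not a test. The list as a whole leaned to KD, with a median log2 ratio of 1.75 in KD over NT and 0.44 in OE over EV, while the medians of all 13920 genes were 0.04 and -0.10. Past the upper limit were 47 of the 54 genes in KD over NT and 13 in OE over EV, against 4.48% and 0.912% of all 13920 genes. Above 0 in both arms were 49 of the 54, and 3993 of all 13920 genes. The 13 members were thus those list genes for which the smaller change, in OE over EV, was also at least 2-fold.

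PLK1, the mitotic polo-like kinase (chr16:23677656-23690367), had 28.2 and 33.6 CPM in NT and 203, 174 and 184 CPM in KD. It had 35.3 and 32.7 CPM in EV and 128.7, 131.6 and 115 CPM in OE. The 6 OE and KD samples lay above all 4 control samples, and every KD sample was above every OE sample. Its log2 ratio was 2.59 ± 0.14 (SE) in KD over NT and 1.88 ± 0.08 in OE over EV. CCNB1, which encodes cyclin B1 (chr5:69167135-69178245), had 50.4 and 55.1 CPM in NT, 207, 175 and 194 CPM in KD, 47.5 and 50.03 CPM in EV, and 126, 128.8 and 116 CPM in OE. CDC20 (chr1:43358981-43363203) followed the same order of lines, with 27.7 and 35.6 CPM in NT, 191, 159 and 168 CPM in KD, 30.1 and 34.2 CPM in EV, and 100, 103 and 95.8 CPM in OE. In these 3 genes the controls overlapped or differed by a few CPM while OE and KD stood apart from them and from each other.

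AURKA, the Aurora A kinase, was the mitotic member whose 2 ratios lay farthest apart, with log2 ratios of 2.59 ± 0.22 in KD over NT and 1.13 ± 0.10 in OE over EV. Its CPM were 10.9 and 14.4 in NT, 83.6, 68.7 and 77.8 in KD, 14.3 and 14.98 in EV, and 36.1, 31.0 and 29.4 in OE. GTSE1, a microtubule-bound protein of dividing cells, had log2 ratios of 2.65 and 1.23, and KIF20A, a kinesin of cytokinesis, 2.41 and 1.03. Cyclin B2 (CCNB2) had 1.83 and 1.15. UBE2C, which starts the ubiquitin chains made by the anaphase-promoting complex, had 1.78 and 1.09. CENPA, the histone H3 variant of centromeres, had 2.16 and 1.32, and the DNA helicase PIF1 2.56 and 1.31. FAM83D, which recruits a kinase to the spindle, had 2.26 and 1.06. The lowest pair in KD over NT belonged to CDC25C, the phosphatase that activates CDK1, with 1.48 and 1.02, and KIF2C, a kinesin that shortens microtubules, had 1.55 and 1.06. The larger ratio was that of KD in 13 of 13. PSRC1, another spindle gene, was just outside the rising group with 0.9998 in OE over EV and 2.24 in KD over NT.

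The 2 comparisons that the rule did not use are EV with NT and OE with KD. Each was tested by the quasi-likelihood F test of edgeR in a model of all 10 samples, adjusted with Benjamini-Hochberg over 17230 genes, and called at an adjusted p under 0.0001. All 145 members passed the expression filter. The samples are those that the rule's ratios were built from, so the direction in these tests is partly tied to the choice of members. For the 13 mitotic members, EV and NT were not called in any (0 of 13, where 5.25% of all tested genes were called higher and 2.91% lower in EV). At an unadjusted p under 0.05 edgeR gave 1 of the 13 (higher in EV), where 22.6% of all tested genes were higher and 20.3% lower. DESeq2 and limma-voom also called 0 of the 13 at an adjusted p under 0.0001. The 13 genes were chosen on ratios that use both controls, so close controls are not read as a trait of them. The log2 fold changes of EV against NT ran from -0.15 to 0.23, with adjusted p from 0.0344 to 0.981. All 13 were lower in OE than in KD, where 16.4% of all tested genes were called lower and 15.5% higher. These log2 fold changes ran from -1.16 ± 0.07 (SE) for KIF20A (adjusted p = 3.57e-13) to -0.42 ± 0.06 for KIF2C (adjusted p = 2.26e-06), and the highest adjusted p was 2.61e-05, for CDC25C. The log2 fold change of OE against KD was -0.45 ± 0.06 for PLK1 (adjusted p = 4.89e-07) and -0.51 ± 0.05 for CCNB1 (adjusted p = 1.32e-08).

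**Figure D2:**
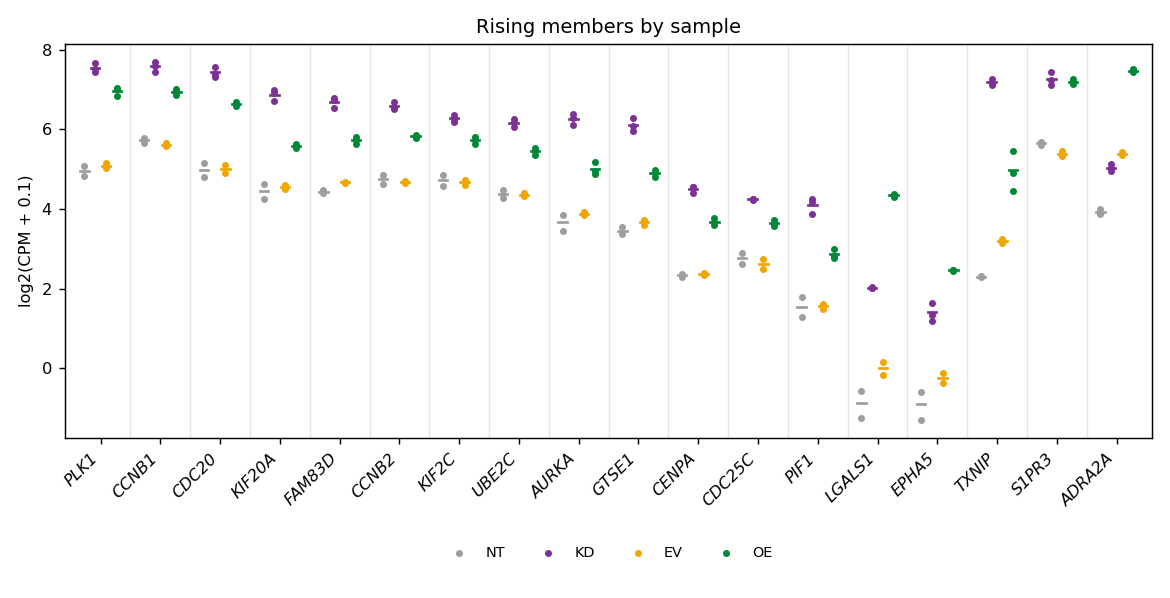
Expression as log2(CPM + 0.1) in each sample for the 13 rising members of the mitosis list and 5 other rising members. Points are samples (NT grey, KD purple, EV orange, OE green) and short bars are line means, and in the 13 mitotic genes KD lies above OE and OE above both controls.

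Genes of the same process stood among the rising members outside the list and were picked after their values were seen. PTTG1, which encodes securin, had 24.9 and 26.5 CPM in NT, 92.6, 77.1 and 87.4 CPM in KD, 19.8 and 22.2 CPM in EV, and 57.5, 58.4 and 56.6 CPM in OE. UBE2S, which extends the ubiquitin chains of the anaphase-promoting complex and had the highest mean CPM of the rising members (166), had log2 ratios of 1.51 ± 0.17 in KD over NT and 1.20 ± 0.06 in OE over EV. TROAP, a spindle-associated protein, had 2.02 and 1.23. CDC20P1, a processed pseudogene of CDC20, had 1.65 and 1.35, and its counts are uncertain because reads of a near-identical copy may be shared with CDC20. In UBE2S the OE samples (211, 226 and 207 CPM) overlapped the KD samples (243, 207 and 225 CPM), and OE differed from KD by 0.06 ± 0.06 on the log2 scale (adjusted p = 0.384). TYMSOS, a transcript antisense to the thymidylate synthase gene TYMS, had log2 ratios of 1.77 and 1.74. Whether its reads can be told from those of TYMS depends on strand, which the sources used here do not state for the counting.

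The other rising members were of many kinds and form no list. LGALS1, which encodes the sugar-binding protein galectin-1 (chr22:37675636-37679802), had the largest weaker-arm ratio of the rising members. Its level was 0.571 and 0.322 CPM in NT, 3.95, 4.04 and 3.91 CPM in KD, 1.02 and 0.784 CPM in EV, and 20.9, 20.4 and 19.5 CPM in OE. All lines kept apart, and OE was above KD with a log2 fold change of 2.48 ± 0.10 (adjusted p = 5.58e-16). EPHA5, an ephrin receptor tyrosine kinase (chr4:65319563-65670495), had 0.305 and 0.563 CPM in NT, 2.197, 2.44 and 3.01 CPM in KD, 0.669 and 0.826 CPM in EV, and 5.44, 5.31 and 5.48 CPM in OE. OE was also above KD for EPHA5 (log2 fold change 1.21 ± 0.15, adjusted p = 1.30e-07), PLA2G4D, a cytosolic phospholipase A2 (1.83 ± 0.16, adjusted p = 6.53e-10), and IGSF21, an immunoglobulin superfamily protein (1.17 ± 0.14, adjusted p = 1.21e-07).

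TXNIP, the thioredoxin-interacting protein that restrains glucose uptake (chr1:145992435-145996579), had the largest ratio of KD over NT in the rising group. Its CPM were 4.88 and 4.78 in NT and 145, 138.6 and 155 in KD. In EV they were 8.78 and 9.41, and in OE 43.8, 21.7 and 29.8, so the OE samples spread more widely than those of the other lines. The log2 ratios were 4.89 ± 0.05 and 1.79 ± 0.30, and TXNIP was lower in OE than in KD, at a log2 difference of -2.06 ± 0.12 (adjusted p = 3.79e-13). PGC, the gastric protease precursor pepsinogen C, which is androgen-induced in prostate cells, was similar, with 0.838 and 0.965 CPM in NT, 18.6, 19.4 and 17.3 CPM in KD, 1.89 and 2.02 CPM in EV, and 6.73, 5.60 and 6.10 CPM in OE. It was the only rising member among 29 androgen-induced genes at the CPM minimum, of which 11 were past the upper limit in KD over NT and 1 in OE over EV.

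In some members the control lines differed from each other. ADRA2A, the alpha-2A adrenergic receptor (chr10:111077029-111080907), had 15.96 and 14.5 CPM in NT, 30.9, 34.8 and 32.4 CPM in KD, 40.6 and 43.1 CPM in EV, and 173, 183 and 180 CPM in OE. The EV samples were above the KD samples, so ADRA2A was the rising member whose 6 OE and KD samples did not all exceed the 4 controls (44 of 45 did, against 13.3% of all 13920 genes). Members were chosen on ratios of these samples, and nothing is read from that share. EV exceeded NT with a log2 fold change of 1.45 ± 0.08 (adjusted p = 8.54e-13). SLC16A3, the lactate exporter MCT4, had 30.01 and 31.9 CPM in NT, 82.2, 78.5 and 82.4 CPM in KD, 57.8 and 54.9 CPM in EV, and 116, 113 and 124 CPM in OE. CRISP3, a secreted cysteine-rich protein that was named after its values were seen, was 1.18 ± 0.15 higher in EV than in NT on the log2 scale (adjusted p = 1.42e-06) and had log2 ratios of 2.29 in KD over NT and 1.22 in OE over EV.

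S1PR3, a receptor for the lipid sphingosine phosphate, had 51.6 and 49.1 CPM in NT, 139.2, 174 and 152 CPM in KD, 40.1 and 43.6 CPM in EV, and 146, 142 and 154 CPM in OE. The OE and KD samples overlapped in level, and their difference was 0.06 ± 0.06 on the log2 scale (adjusted p = 0.45). CLU, the secreted chaperone clusterin, had 4.30 and 4.74 CPM in NT, 18.97, 18.4 and 17.6 CPM in KD, 3.74 and 4.004 CPM in EV, and 13.0, 14.01 and 13.6 CPM in OE. CYP11A1, the enzyme that cleaves the cholesterol side chain at the start of steroid synthesis, had log2 ratios of 2.51 ± 0.32 and 1.78 ± 0.09 but stayed at 4.15 CPM or less in every sample. IFITM1, an interferon-induced membrane protein, had ratios of 2.36 and 1.96 at 0.394 to 4.59 CPM, and it was the only rising member among 25 interferon-stimulated genes at the CPM minimum, whose medians were -0.02 in KD over NT and -0.03 in OE over EV. STC1, a secreted glycoprotein of the hypoxia and glycolysis list, was the only rising member of its 34 genes, with ratios of 1.55 and 2.03. In STC1 EV was below NT, at 0.473 and 0.619 against 1.30 and 1.61 CPM.

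The remaining rising members, named after their values were seen, were mostly low. AGR2, a disulfide isomerase of secretory cells, had log2 ratios of 1.62 in KD over NT and 1.61 in OE over EV. SLPI, a secreted protease inhibitor, had 1.33 and 1.17, and MSMB, the prostate-secreted microseminoprotein, 1.79 and 1.06. NMU, the neuropeptide neuromedin U, had 1.68 and 1.03, HTR3A, a subunit of a serotonin-gated channel, 2.48 and 1.29, and TRIM2, a ubiquitin ligase, 1.61 and 1.21. DNAH9, a dynein of motile cilia, DMBX1, a homeobox factor, HRC, a calcium-binding protein, AMOTL1, a junction protein, and the unnamed loci AL359513.1 and AL121672.3 had mean CPM under 5. CAPN9, a calpain protease, was the member just inside the limit, with ratios of 1.02 and 1.00, and the genes ACBD7 and PKP1 were just outside it at 0.998 and 0.99 in OE over EV.

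Over the rising group the median log2 ratio was 1.83 in KD over NT and 1.31 in OE over EV, and the KD ratio was the larger in 37 of 45. Mean CPM was under 5 in 17 members and at least 50 in 12. No member had overlapping samples in either arm, where 19% of all 13920 genes had none with OE and KD higher than their controls. The rule used these contrasts, and nothing is read from this share. EV was called higher than NT in 3 of the 45 (CRISP3, ADRA2A and SLC16A3) and lower in 0, against 5.25% and 2.91% of all tested genes. DESeq2 and limma-voom also called 3 and 0, and at an unadjusted p under 0.05 edgeR gave 14 higher and 5 lower, against 22.6% and 20.3%. At an adjusted p under 0.05, 13 were higher and 3 lower, against 18.5% and 15.5% of all tested genes. OE was called higher than KD in 7 and lower in 17, of which 13 were the mitotic members, against 15.5% and 16.4%. At an adjusted p under 0.05 it was higher in 14 and lower in 25, against 29.2% and 30.6%. When the controls were exchanged, so that OE was set against NT and KD against EV, 33 of the 45 stayed at or above the limit in both ratios. Of all 13920 genes, 69 passed in this way. The exchanged ratios reuse the line means that chose the members, so this count is a description.

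Of 21 functional lists, 6 held a member and 15 did not, among them those of p53 targets, heat shock, fatty acid oxidation, cholesterol and fatty acid synthesis, ATF4 targets and histones, and the 6 lists of cell type markers held 0 members.

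The falling members had no functional group of the size of mitosis, and 97 of the 100 stood on none of the lists. MALAT1, a long non-coding RNA held in nuclear speckles (chr11:65497640-65508073), had the highest mean CPM of all members (838). Its level was 1802 and 1682 CPM in NT, 552, 463 and 565 CPM in KD, 1138 and 1131 CPM in EV, and 354, 293 and 404 CPM in OE. The OE and KD samples were below all controls, and EV was below NT with a log2 fold change of -0.62 ± 0.09 (adjusted p = 6.46e-06). The log2 ratios were near equal in the 2 arms, -1.72 ± 0.10 in KD over NT and -1.69 ± 0.13 in OE over EV, and OE was below KD, at a log2 difference of -0.46 ± 0.07 (adjusted p = 8.10e-06).

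MAP1B, a microtubule-associated protein of neurons (chr5:72107234-72209565), had 573 and 513 CPM in NT, 77.1, 71.8 and 77.6 CPM in KD, 311 and 319 CPM in EV, and 141, 129.1 and 137 CPM in OE. ITPRID2, an actin-associated protein that binds the inositol trisphosphate receptor (chr2:181891730-181930738), had 487 and 486 CPM in NT, 226, 211 and 230 CPM in KD, 231 and 248 CPM in EV, and 33.5, 32.0 and 33.4 CPM in OE. The orders of the lines thus differed, since the lowest line was KD for MAP1B and OE for ITPRID2. The log2 fold change of OE against KD was 0.98 ± 0.05 for MAP1B (adjusted p = 2.67e-14) and -2.62 ± 0.05 for ITPRID2 (adjusted p = 5.79e-23). In both genes EV was below NT, with log2 fold changes of -0.79 ± 0.05 (adjusted p = 5.85e-11) and -1.02 ± 0.05 (adjusted p = 7.75e-14). In ITPRID2, EV and KD were close to each other in level, so its change in KD over NT was of the size of the difference between the controls.

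**Figure D3:**
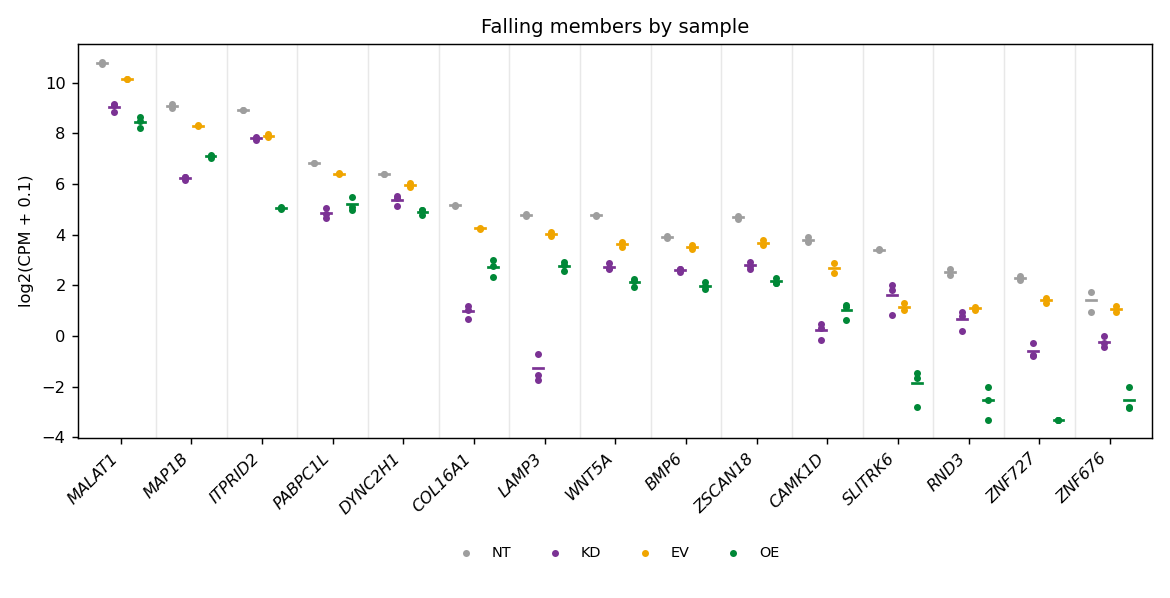
Expression as log2(CPM + 0.1) in each sample for 15 falling members. Points are samples (NT grey, KD purple, EV orange, OE green) and short bars are line means, and NT is the highest line in each of the 15 genes by its mean, while the lowest is KD in some (COL16A1, LAMP3) and OE in others (ITPRID2, RND3, ZNF727).

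The list of extracellular matrix and adhesion, with 25 genes at the CPM minimum, held no falling member (0 genes). COL16A1, a collagen chain that is not on that list (chr1:31652263-31704319), had 36.0 and 35.2 CPM in NT, 1.48, 1.92 and 2.202 CPM in KD, 19.1 and 18.7 CPM in EV, and 7.95, 4.92 and 6.61 CPM in OE. KD was the lowest line, and OE exceeded it with a log2 fold change of 1.93 ± 0.16 (adjusted p = 2.38e-10). CAMK1D, a calmodulin-dependent kinase, had the same order, with 14.8 and 12.9 CPM in NT, 0.799, 1.28 and 1.15 CPM in KD, 5.55 and 7.22 CPM in EV, and 2.09, 2.25 and 1.43 CPM in OE. WNT5A, a secreted ligand of non-canonical Wnt signalling, had 27.3 and 26.7 CPM in NT, 6.07, 7.35 and 6.36 CPM in KD, 11.3 and 13.0 CPM in EV, and 4.45, 3.69 and 4.67 CPM in OE. BMP6, a bone morphogenetic protein, had log2 ratios of -1.29 ± 0.06 in KD over NT and -1.53 ± 0.11 in OE over EV. These were the 2 falling members among 31 genes of a list of Wnt, Notch, TGF-beta and BMP signalling at the CPM minimum, whose medians were 0.21 and -0.11. BIRC3, an inhibitor of apoptosis induced by NF-kB, was the 1 falling member of 9 in its list and lay just inside the limit, with -2.06 and -1.001, at 3.01 CPM or less.

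RND3, an atypical small GTPase that opposes actomyosin contraction, had 6.09 and 5.18 CPM in NT and 1.84, 1.04 and 1.61 CPM in KD. In EV it had 2.13 and 1.94 CPM, and in OE 6 counts were left over the 3 samples, so its size of change there is set by few reads. SLITRK6, a neuronal transmembrane protein, likewise had 10.3 and 10.6 CPM in NT, 3.95, 1.68 and 3.39 CPM in KD, 1.93 and 2.35 CPM in EV and 14 counts in all in OE. For SLITRK6 the EV samples were within the range of the KD samples, and EV was below NT, at a log2 difference of -2.29 ± 0.23 (adjusted p = 3.63e-08). SPEG, a muscle kinase, had log2 ratios of -1.97 and -2.54, SYNPO, the actin-binding protein synaptopodin, -1.63 and -1.73, SAMD5 -1.62 and -1.65, and PNMA2, a neuronal antigen, -1.69 and -2.20. All 4 had a mean CPM under 5.

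PABPC1L, a poly(A)-binding protein, had 113 and 114 CPM in NT, 28.04, 25.5 and 32.8 CPM in KD, 86.1 and 82.8 CPM in EV, and 44.3, 31.1 and 33.9 CPM in OE. DYNC2H1, the motor of transport back along the cilium (chr11:103109410-103479863), had 85.0 and 84.2 CPM in NT, 43.3, 34.5 and 46.5 CPM in KD, 58.9 and 65.7 CPM in EV, and 30.9, 27.3 and 31.1 CPM in OE. AASS, which starts lysine breakdown in mitochondria, had log2 ratios of -1.67 and -1.27, and TTC37, a subunit of the cytoplasmic SKI complex that feeds RNA to the exosome, -1.13 and -1.67. Other members with known roles in cilia were picked after their values were seen and stood in both groups, since DNAH9, the dynein of motile cilia, was a rising member. CEP290, a protein of the ciliary transition zone, had 45.4 and 41.9 CPM in NT, 16.8, 11.1 and 20.6 CPM in KD, 18.5 and 16.6 CPM in EV, and 5.97, 7.43 and 7.31 CPM in OE. RPGR, another transition zone protein, had -1.16 and -1.14, and CEP126, a protein of the ciliary base, -1.49 and -1.66.

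Zinc finger genes were frequent among the falling members, an observation made after the values were seen. Most genes of this kind encode DNA-binding repressors, many of them in clusters on chromosome 19. Of the 100 falling members 13 had a ZNF, ZSCAN, ZFP or ZKSCAN symbol, against 3.59% of genes at the CPM minimum, and 0 of the 45 rising members did. ZSCAN18 had 24.6 and 26.8 CPM in NT, 6.75, 7.51 and 6.12 CPM in KD, 13.5 and 11.9 CPM in EV, and 4.18, 4.80 and 4.12 CPM in OE. ZNF84 had 61.1 and 62.6 CPM in NT, 27.7, 24.3 and 32.8 CPM in KD, 50.2 and 51.0 CPM in EV, and 22.2, 19.1 and 24.7 CPM in OE. In both genes NT was the highest line and OE the lowest. ZNF727 had 5.07 and 4.50 CPM in NT, 0.719, 0.480 and 0.489 CPM in KD, 2.36 and 2.77 CPM in EV, and no count in any OE sample. Against a floor of 3 counts over the 3 OE samples together, ZNF727 was at least 65.9-fold lower in OE than in EV, and ZNF492, also without a count in OE, at least 17.5-fold lower. ZNF676 had 6 counts over the 3 OE samples and 99 over the 2 EV samples. The others were ZNF208, ZNF117, ZNF441, ZNF10, ZNF334, ZNF277 and the pseudogenes ZNF204P and ZNF300P1. Zinc finger genes share long stretches of sequence, so reads may be split between them. Of all 500 genes with such symbols at the CPM minimum, 311 (62.2%) were below 0 in both ratios, against 34.4% of all genes, and the shares were 58.4% and 31.0% after TMM scaling. Their median log2 ratios were -0.32 in OE over EV and -0.25 in KD over NT.

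LAMP3, a lysosomal membrane protein (chr3:183122215-183163839), had the lowest ratio of KD over NT of all members and was picked for that. It had 27.9 and 26.4 CPM in NT, 0.519, 0.200 and 0.245 CPM in KD, 15.2 and 17.1 CPM in EV, and 7.53, 6.88 and 5.84 CPM in OE. Its log2 ratios were -6.02 ± 0.32 and -1.25 ± 0.13, and OE was above KD by 4.52 ± 0.21 on the log2 scale (adjusted p = 7.75e-15). At the other end, LINC00632, a long non-coding RNA on the X chromosome, had 78.1 and 77.6 CPM in NT, 11.1, 9.07 and 10.6 CPM in KD, 3.82 and 5.04 CPM in EV, and 1.67, 2.04 and 1.91 CPM in OE. Here both EV samples were below every KD sample, and EV was below NT, at a log2 difference of -4.14 ± 0.11 (adjusted p = 7.63e-19). ADAMTS2, the protease that trims procollagen, was likewise below NT in EV, at a log2 difference of -3.11 ± 0.30 (adjusted p = 2.08e-08), and GSTA1, a glutathione transferase whose close paralogues may share its reads, at a log2 difference of -1.52 ± 0.10 (adjusted p = 3.49e-11). RELN, which encodes the secreted protein reelin, was the falling member called higher in EV than in NT (0.82 ± 0.09, adjusted p = 3.35e-07), with 28.7 and 23.3 CPM in NT, 3.79, 3.24 and 4.61 CPM in KD, 44.6 and 47.8 CPM in EV, and 17.7, 15.7 and 17.3 CPM in OE. These last 4 genes were named after their values were seen.

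The remaining falling members are given by kind, also after their values were seen. Regulators of transcription were RORA, a nuclear receptor, PRDM16, ARNT2, NAB1, PHF21B and ZMAT1. Signalling proteins were JAK1, the kinase of cytokine receptors, ADCY7, AKAP5, STK32A, ARAP2, SPRY3, PARP8 and DET1. Membrane and transport proteins were CACNA1H, a T-type calcium channel, KCNJ12, SLC24A3, SLC22A15, IL1RAPL1, CD24, ZPLD1, PCDHGA5 and PCDHGA6. Enzymes were CYP46A1, which hydroxylates cholesterol in brain, HSD17B14, CHST15, GPCPD1 and ZDHHC15. HRK, a BH3-only activator of cell death, and GSDME, a pore-forming gasdermin, belonged to cell death. Muscle and cytoskeletal genes were TNNT1, MYH3, SPTBN1, SH3PXD2A and LRRC39. HTRA1 and NELL2 are secreted proteins, OPTN is an autophagy receptor, and NECAB2 binds calcium. LRRC49, LRRIQ1, SAMD12 and CCDC82 are other coding symbols. GOLGA8A, GOLGA8B and GOLGA6L9 are near-identical golgin genes, PCDHGA5 and PCDHGA6 share their last exons, ANKHD1-EIF4EBP3 is a readthrough locus and SMG1P7 a pseudogene, so their counts are uncertain. GDNF-AS1 and CCDC18-AS1 are antisense transcripts, and LINC00894, PURPL and ERVE-1 are annotated as long non-coding RNAs. ELFN2 took the same label from the first annotation record of its symbol, and its type is uncertain. A further 7 loci (AC092070.2, AC009962.1, AC009318.1, AC099654.6, AC010329.1, AC006504.1 and AC010210.1) were not placed by symbol. The log2 ratios of these members ran within -3.89 to -1.01 in KD over NT and -3.19 to -1.002 in OE over EV. IL1RAPL1 and HTRA1 lay just inside the limit, with weaker-arm sizes of 1.002 and 1.006, and ZNF665, FGFR2 and CACNA1D just outside it, with -0.995, -0.994 and -0.992 in KD over NT.

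Over the falling group the median log2 ratio was -1.37 in KD over NT and -1.31 in OE over EV, and the larger change was in KD for 52 members and in OE for 48. Mean CPM was under 5 in 64 members and at least 50 in 5. Samples overlapped in neither arm in any member, where 21.6% of all 13920 genes had none overlapping with OE and KD lower than their controls. The 6 OE and KD samples lay below all 4 controls in 83 of the 100, against 12.8% of all 13920 genes. The rule used these contrasts, and nothing is read from these shares. EV was lower than NT in 95 of the 100 members at any p, with a median log2 fold change of -0.59, where the median of all tested genes was -0.004. It was called lower in 30 and higher in 1, against 2.91% and 5.25% of all tested genes. At an adjusted p under 0.05 it was lower in 66 and higher in 3, against 15.5% and 18.5% of all tested genes. NT and EV are the denominators of the rule's ratios, and a low gene can pass the CPM minimum through NT. The direction and counts of EV against NT are therefore partly tied to the choice of members, and no trait is read from them. OE was called lower than KD in 20 and higher in 8, against 16.4% and 15.5% of all tested genes. At an adjusted p under 0.05 it was lower in 52 and higher in 14, against 30.6% and 29.2%. With the controls exchanged between the arms, 37 of the 100 stayed at or below the limit in both ratios, and 69 of all 13920 genes passed in this way. These ratios reuse the line means that chose the members, so this is a description. The count in EV against NT rests on few libraries. It was 31 in both directions together with all 10 samples and 13 without EV 1, 14 without EV 2, 15 without NT 1 and 18 without NT 2.

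**Figure D4:**
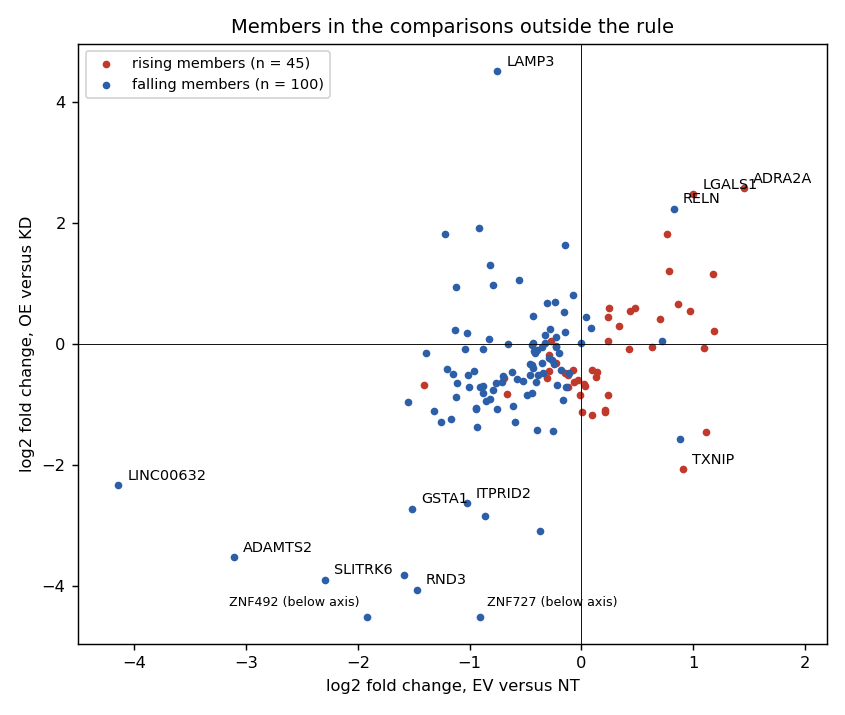
The log2 fold change of EV against NT (x axis) and of OE against KD (y axis), from edgeR, for the 45 rising (red) and 100 falling (blue) members. Most falling members lie left of 0 (95 of 100), a side partly tied to the choice of members because EV and NT are denominators of the rule. ZNF727 and ZNF492, which have no count in OE, are drawn at the lower edge because their fitted change is not a measured size.

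The members differed from other genes in length and base content. The rule names neither property, but CPM is not divided by transcript length, so the CPM minimum depends on length. Annotation by symbol (GENCODE v44, GRCh38) placed 43 of 45 rising members, 93 of 100 falling members and 90.7% of the genes at the CPM minimum. The longest transcript had a median of 2475 bases in the rising members, 5754 in the falling members and 3863 in all genes at the minimum. The median span of the gene was 17.4 kb, 66.6 kb and 32.6 kb in the same order. Median GC content of the longest transcript was 51.9%, 42.4% and 48.0%. The groups also differed in level, with a median of the mean CPM of 9.49, 2.81 and 23.6 in the same order. The genes compared were not matched for level. By annotation label, long non-coding RNAs were 10.8% of the placed falling members against 5.17% of placed genes. Among the falling members this label includes SMG1P7 and ZNF300P1, named above as pseudogenes, and ELFN2, whose type is uncertain. The quality of the RNA was not measured in the files, and its part in these differences was not tested. Within a line, OE 2 was the lowest of the 3 OE samples in 56 of the 100 falling members and KD 2 the lowest of the 3 KD samples in 48, while OE 3 was the lowest in 14 and KD 3 in 18. Among the 45 rising members, KD 2 was also most often the lowest KD sample (27 genes). There OE 3 was the lowest OE sample in 26 and OE 2 in 16. The shares over all genes were not counted, so no trait of either group is read from these ranks.

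**Figure D5:**
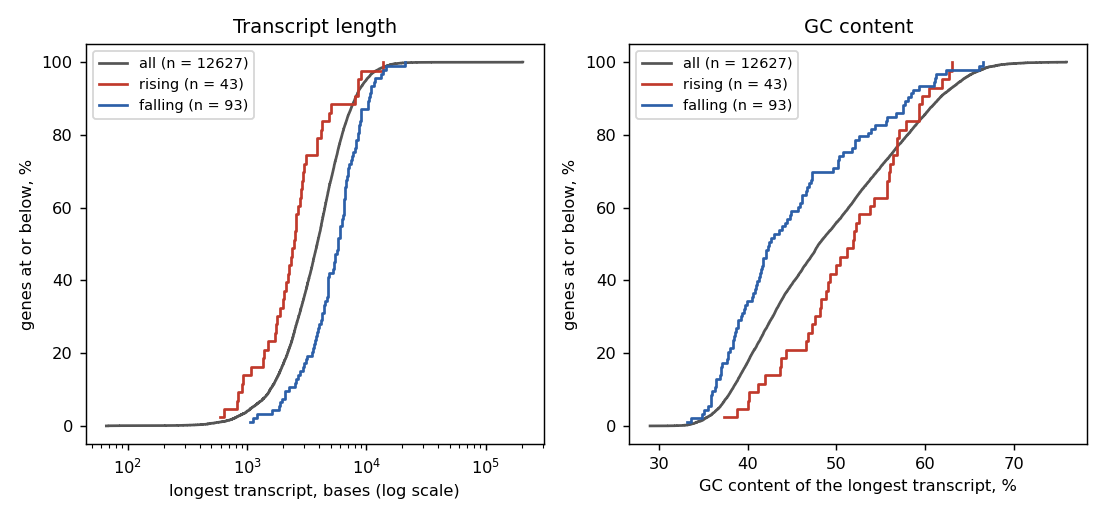
Cumulative share of genes (y axis, %) by the length of the longest transcript (left, log scale) and by its GC content (right) for 43 rising members (red), 93 falling members (blue) and all 12627 placed genes with a mean CPM of at least 1 (grey). The falling curve lies at longer transcripts and lower GC content than the grey curve, and the rising curve at shorter transcripts and higher GC content.

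Some members were neighbours. Within 1 Mb of each other lay 22 pairs of members, 15 of them moving in the same direction. Such pairs were not counted over all genes at the CPM minimum, so no grouping of members is read from these numbers. KIF20A and CDC25C, both rising, are 97.5 kb apart on chromosome 5. ZNF84 and ZNF10 are 67.3 kb apart on chromosome 12, GOLGA8B and GOLGA8A 87.3 kb apart on chromosome 15. ZNF208, ZNF676 and ZNF492 follow each other on chromosome 19, with gaps of 168.1 kb and 418.5 kb. Expressed genes near a member were lower in OE over EV in part of the cases. A median log2 ratio of at most -0.3 over the genes within 5 Mb, where at least 10 were expressed, was seen around 25 of 89 falling members (28.1%), 6 of 42 rising members (14.3%) and 16.3% of all 12523 genes with such a value. In KD over NT it was seen around 6 of 89 falling members (6.74%), 1 of 42 rising members and 1.37% of all genes. A local median of at least 0.3 stood around 1 falling and 0 rising members in OE over EV, and around 2 and 1 in KD over NT. In OE over EV the local median was -0.71 around HTRA1, -0.69 around NAB1, -0.68 around CHST15 and -0.67 around CD24, and it was as low around the rising members ADRA2A (-0.78) and AGR2 (-0.66). The part that copy number has in these local values was not tested.

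Scaling moved the 2 groups in opposite directions. TMM factors were 0.927 to 0.950 in the OE samples and 1.01 to 1.06 in the others, which shifted the median log2 ratio of OE over EV over all 13920 genes from -0.10 with plain CPM to 0.01. Of the genes past a limit in OE over EV, 20.8% were higher with plain CPM and 36.0% with TMM. Under TMM there were 67 rising members, among them all 45, and 82 falling members, of which 78 were shared with the 100.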

How the data were processed

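RNA of 10 samples was analysed from whole-number counts per gene, deposited by the authors for 57353 gene symbols, and 0 sample columns were left out. Before deposit, the authors made poly(A) libraries, read them in pairs on a NovaSeq, trimmed them with BBDuk, mapped them with STAR 2.6.0a to Ensembl hg38.p12 (release 96) and counted reads per gene, and the strand setting and the treatment of reads with several matches are not given in the sources used here. Depth per sample was 23555205 to 28615770 counts. Groups and replicate numbers come from the sample labels.

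Line means of CPM (count over library total, times 1000000) gave the ratios that chose the members, with a pseudocount of 0.1, a minimum mean CPM of 1 and a log2 limit of 1, and the SE of a ratio comes from the spread between samples. EV with NT and OE with KD were tested with edgeR 4.0.16 in R 4.3.3 (filterByExpr, TMM, quasi-likelihood F test on all 10 samples with 1 mean per line), adjusted with Benjamini-Hochberg over 17230 genes and called under 0.0001. Samples of a line varied with a biological coefficient of variation of 0.0446. The procedure was tested on simulated data. The comparisons of the rule itself were not tested. Members named were, in each direction, the 12 with the largest weaker-arm ratio (the smaller of the 2 sizes), the 8 with the highest mean CPM, the 3 just inside and the 3 genes just outside the limit, and every member on a list. Genes named otherwise are said to be chosen after their values were seen. Members and lists were chosen with earlier results of these data known. Positions, lengths and GC content came from GENCODE 44 by symbol, and promoter windows from RefSeq on GRCh38.p14. Alternatives were other scalings, pseudocounts, limits and filters, exchanged or pooled controls, DESeq2 1.42.0, limma-voom (limma 3.58.1), the replicate block, the 2 lines alone and leaving out each sample. A further luminal marker is not reported here.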

Additional observations from a re-analysis of the deposited data

How the results depend on the processing

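The numbers of members depended mostly on the limits. A pseudocount of 1 CPM left 40 falling members, and without a minimum CPM there were 74 rising and 198 falling. A minimum of 5 CPM left 28 and 36, a log2 limit of 0.58 gave 237 and 563, and a limit of 2 left 2 and 1. Exchanging the controls gave 69 rising members. Leaving out 1 sample gave 43 to 53 rising and 85 to 118 falling members, of which at least 39 and 79 were members with all samples. For the tests, a limit of 0.05 gave 16 rising and 69 falling members in EV versus NT and 39 and 66 in OE versus KD. At least 10 counts in every sample left 15 falling members in OE versus KD, where fewer genes were tested. In EV versus NT, no filter gave 48 falling members and a fit of those 2 lines alone also gave 48, and the cause was not tested. Leaving out 1 sample gave 13 to 39 falling members in EV versus NT, 22 to 33 in OE versus KD, and 2 to 4 and 23 to 26 rising members. The low numbers in EV versus NT came from leaving out EV or NT samples, where a line has 1 sample that is assumed to vary like the others. Counts under the alternatives not given here, DESeq2 and limma-voom among them, stayed within 1.5 times the main count. Low counts limit 64 of 100 falling members, with a mean CPM under 5.

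Replicate numbers in different lines were not described as a shared batch, and they share only a number. Residuals correlated by -0.00282 on average over 13 same-numbered pairs (-0.0443 to 0.0783), and by 0.00156 over 24 other pairs. With the replicate block the counts were 3 rising and 33 falling in EV versus NT (3 and 31 without it) and 24 and 31 in OE versus KD (24 and 28 without it).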
